A study of Mus musculus with 16 samples.

Results

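Complement components and regulators were followed in mouse peritoneal macrophages with and without a transgene for urokinase plasminogen activator (uPA). The 9 genes chosen by name were C1qa, C1qb, C1qc, C3, C4b, Cfb, Cfp, C3ar1 and Serping1, and every probe carrying one of these symbols in the platform annotation was taken. That gave 10 probes of 24607 for 7 genes, of which 8 probes, at least 1 for each of the 7 genes, passed the filter on dim probes described below. No probe carried the symbols C3 or Cfp in the annotation used, so these 2 genes were not analysed here.

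All mice were female, lacked apolipoprotein E (Apoe-/-), which raises plasma cholesterol, and ate a Western diet for 10 weeks until 15 weeks of age. By their labels 6 animals carried SR-uPA+/0, a transgene that overexpresses uPA in macrophages, and 6 were nontransgenic. SR stands for the macrophage scavenger receptor, whose regulatory sequences drive the transgene. Cells were elicited with thioglycollate, harvested 5 days later and kept if they adhered to plastic within 2 h. Each animal had its own Illumina Mouse Ref-8 v1.1 array, and a pool of the 6 RNA samples of each genotype was hybridised on 2 further arrays, which makes 16 arrays.

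Complement is a cascade of plasma proteases that tags targets for phagocytosis and calls in leukocytes. The classical pathway starts when C1q, a bundle of A, B and C chains, binds its target and activates the proteases C1r and C1s, which cut C4 and C2. The alternative pathway amplifies through factor B and properdin, and both routes meet at C3. Most complement proteins are made in the liver, whereas macrophages and dendritic cells are the main source of C1q.

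Between 9543 and 9551 probes per array exceeded a noise limit of about 56.8 intensity units, a near equality that follows from the authors' normalization. The number of arrays limits the precision. A probe was tested when it exceeded the limit on at least 3 of the 12 animals, as 10534 probes did. The single Plau probe, which should report the transgene if it lies within the sequence the transgene carries, did not separate the labels (-0.10 on the log2 scale, SE 0.42, limma adjusted p = 0.967, n = 6 per genotype), so directions refer to the genotype on the label. Of 12 macrophage markers 8 were tested and none passed the threshold. Adgre1, which encodes F4/80, averaged 9013 units in nontransgenic and 8745 in transgenic animals, Marco exceeded noise in 10 of 12 animals, and Msr1 and Cd163 in none. A probe below noise does not show that its transcript is absent. The macrophage list mean differed by 0.09 on the log2 scale (exact permutation p = 0.286, n = 6 per genotype). In principal components of all tested probes the arrays farthest from the rest were transgenic 1 and transgenic 6. The 16 hybridisations used more than 1 chip.

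Serping1 was the member that differed between the genotypes. It encodes C1 inhibitor, the serpin that inactivates C1r, C1s and the lectin-pathway proteases as well as plasma kallikrein and factor XIIa. In the 6 nontransgenic animals its deposited intensity was lowest at 197, had a median of 409 and was highest at 590 units. In the 6 transgenic animals it was lowest at 86.2, had a median of 111 and was highest at 249 units. The ranges overlapped, since nontransgenic 3 (197) and nontransgenic 6 (245) lay below transgenic 6 (249), while the other 5 transgenic animals lay below every nontransgenic one.

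The means were 394 ± 151 (SD, n = 6) in nontransgenic and 135 ± 62.6 (SD, n = 6) in transgenic animals. On the normalized log2 scale, which understates changes of dim genes, Serping1 fell by 1.06 in transgenic animals (SE 0.21, 95% interval of the log2 difference -1.50 to -0.62), 2.08-fold lower with an interval of 1.54 to 2.83. It passed limma's test over all tested probes (adjusted p = 0.0209) and had an exact two-sided permutation p of 0.00649 (n = 6 per genotype). All 6 transgenic animals lay below the nontransgenic mean. It was the 1 call among the 7 members with a tested probe, where 0.731% of all tested probes were called, 0.627% as lower and 0.104% as higher in transgenic animals. By p it ranked at 50 among the 10534 tested probes.

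The repeat arrays of the pools kept this order. The nontransgenic pool read 301 and 205 units and the transgenic pool 111 and 64.5, a log2 difference of -0.92. Both pools read lower than the mean of the animals whose RNA they held, at 0.643 of it for nontransgenic and 0.649 for transgenic. Serping1 varied more between animals (log2 SD within genotype 0.42) than between the repeats of a pool (0.27).

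**Figure D1:**
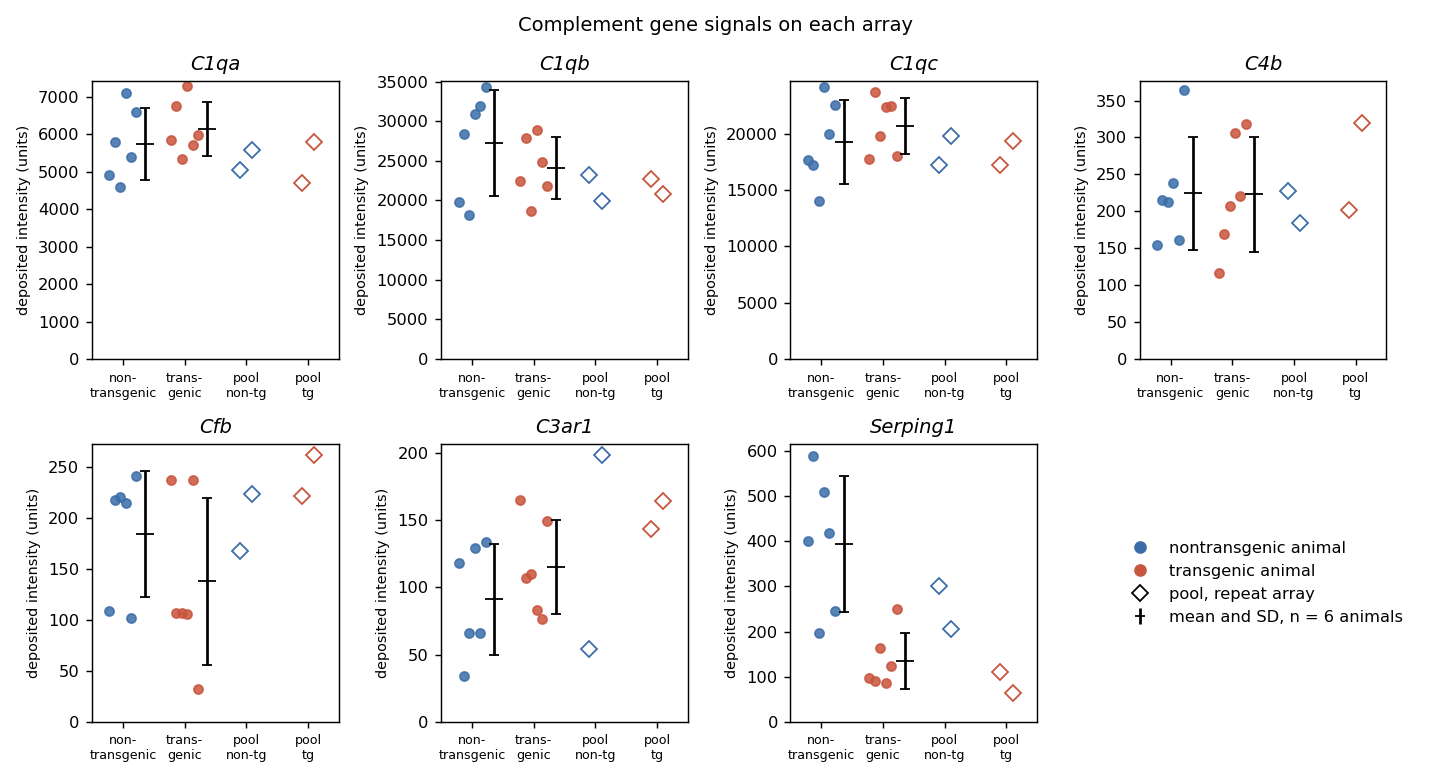
Deposited intensity (linear units, axis from 0) of each of the 7 measured complement genes on every array. Dots are single animals, bars the mean and SD of 6 animals, and open diamonds the 2 repeat arrays of each pool. For Serping1 most transgenic animals and both transgenic pool arrays lie lower than the nontransgenic ones, and the other genes overlap.

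The Serping1 call depended on single animals. Its adjusted p was 0.0585 without nontransgenic 2, 0.0552 without nontransgenic 5, 0.0670 without transgenic 4 and 0.0513 without transgenic 5, with log2 differences from -1.19 to -0.95 over the 12 such fits. Without transgenic 1 and transgenic 6, the arrays that stand apart, it was -1.16 (limma adjusted p = 0.0244).

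Fibroblast markers differed between the genotypes. Of 14 fibroblast markers 10 were tested and 4 fell in transgenic animals, with the smallest p for Col5a1, a fibrillar collagen chain, at -1.61 on the log2 scale (SE 0.16, limma adjusted p = 6.21e-05). Col1a1, the main chain of type I collagen, was next by p, at -1.41 (SE 0.21, adjusted p = 0.00261). Of the 4, Col3a1 exceeded noise in 6 nontransgenic and 0 transgenic animals, so it passed the filter only through the group where it was high. The mean of the 10 tested fibroblast markers, Col3a1 among them, differed by -0.93 on the log2 scale (exact permutation p = 0.00216, n = 6 per genotype, the smallest possible; 0.00758 adjusted over 7 marker lists). Of those 10, Dcn (-1.58), Pdgfra (-1.19), Sparc (-0.64), Pdgfrb (-0.19), Col6a2 (-0.06) and Dpt (0.09) did not pass on their brightest tested probes. A dimmer Dcn probe did pass (-1.20, SE 0.24, limma adjusted p = 0.0265), and another did not (-0.98, SE 0.32, limma adjusted p = 0.309). The marker lists were chosen with earlier results of these data known, so their p values are not independent of those. The summed intensity of the list ran from 10143 to 18558 units in nontransgenic and from 1781 to 7802 in transgenic animals, and Col1a2, Lum, Thy1 and Fbln1 did not pass the filter. Such sums, here and for the other lists, took every probe of a list, tested or not, so bright probes weigh most. The brightest Dcn probe alone averaged 5343 units in nontransgenic and 2005 in transgenic animals. Fibroblasts are known to make C1 inhibitor. The part of these cells in the Serping1 difference was not tested. In bulk RNA, fewer cells of a type and less RNA per cell cannot be told apart.

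Within genotypes Serping1 followed the mean of a list of markers of resident large peritoneal macrophages, the cells that populate the unstimulated cavity. Of 9 such markers 6 were tested and none passed, with Alox15 and Garnl3 not past the filter. The 6 did not shift alike between genotypes. Log2 differences were -1.28 for Cxcl13, -0.87 for Gata6, -0.25 for Timd4, -0.06 for Icam2, 0.05 for Selp and 0.22 for F5. F5 exceeded noise in 5 of 12 animals. Serping1 was compared with the list mean only, not with each marker. Summed intensity ran from 1696 to 3642.5 units in nontransgenic and from 996 to 3256 in transgenic animals, and the list mean differed by -0.37 on the log2 scale (exact permutation p = 0.0844, n = 6 per genotype; 0.148 adjusted over 7 lists). After each genotype's mean was removed, Serping1 and that list mean correlated over the 12 animals with r = 0.79 (permutation p = 0.00111, adjusted p = 0.0343 over the 49 relations of 7 members with 7 marker lists). The rank correlation was 0.77 (permutation p = 0.00678, adjusted p = 0.282). Pearson's r was 0.78 among nontransgenic and 0.92 among transgenic animals, and 0.53 without the 2 animals farthest from the median. For fibroblast markers r was 0.39 (permutation p = 0.210, adjusted p = 0.572), the rank correlation 0.39 (permutation p = 0.225, adjusted p = 0.639), and r without the 2 farthest animals 0.30. Mesothelial markers, 6 of 9 tested and none past the threshold, had r of 0.41 (permutation p = 0.205, adjusted p = 0.572). Their rank correlation was 0.31 (permutation p = 0.348, adjusted p = 0.742), and r without the 2 farthest animals 0.25.

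With the resident macrophage mean as a term in limma's fit, an alternative added after seeing the data, the Serping1 difference was -0.69 (SE 0.17, adjusted p = 0.158). With the neutrophil and fibroblast means as terms it was -0.80 (SE 0.50, adjusted p = 0.859). Neither passed. In transgenic animals the neutrophil mean exceeded that of nontransgenic animals by 1.07 log2 units (exact permutation p = 0.00216, n = 6 per genotype; 0.00758 adjusted over 7 lists). Of 15 neutrophil markers 9 were tested and 4 rose, with the smallest p for Retnlg, a resistin-like secreted protein, and Pglyrp1, a granule protein that binds peptidoglycan. Retnlg differed by 1.42 (SE 0.23, limma adjusted p = 0.00622) and Pglyrp1 by 1.24 (SE 0.21, adjusted p = 0.00967). Summed neutrophil intensity ran from 4935 to 18572 units in nontransgenic and from 12809 to 46121 in transgenic animals, and Ngp, Mmp8, Cxcr2, Elane and Mpo did not pass the filter. The mean of the B cell markers, 5 of 9 tested and none past the threshold, was higher by 0.19 (exact permutation p = 0.0195, n = 6 per genotype; 0.0455 adjusted over 7 lists). Their summed intensity ran from 399 to 776 units in nontransgenic and from 647 to 1109 in transgenic animals, with Cd79a and Pax5 not past the filter. Cd79b, part of the B cell receptor complex, had 0.76 (SE 0.23, limma adjusted p = 0.205) and Ms4a1, which encodes CD20, had 0.13 (SE 0.12, limma adjusted p = 0.815). The other tested B cell markers were near 0, with 0.03 for Cd22, 0.009 for Blk and -0.0053 for Fcrla on its brightest tested probe. The higher list mean thus rests mainly on Cd79b.

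**Figure D2:**
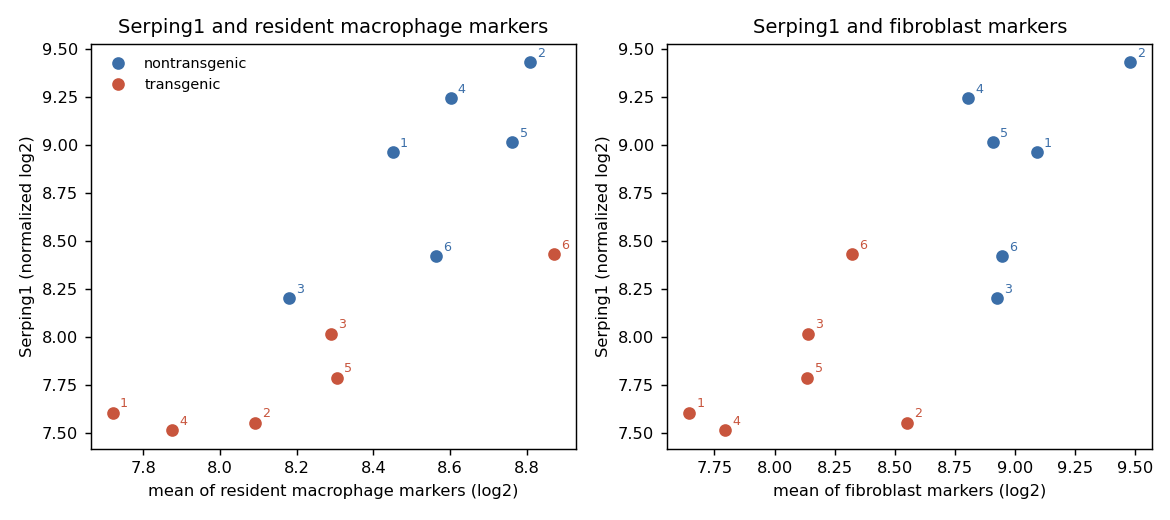
Normalized log2 level of Serping1 (vertical) against the mean log2 level of resident large peritoneal macrophage markers (left) and of fibroblast markers (right) in each animal, numbered within its genotype. On the left the animals of each genotype rise together (r = 0.78 and 0.92). On the right the groups separate along the horizontal axis, and the correlation with genotype means removed is 0.39.

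The genes of the C1q chains did not pass the genotype test. The 3 genes lie next to each other on chromosome 4, in the order C1qb, C1qc and C1qa, with no other coding gene between them in the RefSeq table of GRCm38.p6. Upstream sequences are shown for C1qb and C1qc, adjacent genes whose levels moved together across animals, as given below. C1qa, which lies next to C1qc and moved with both, is not shown because the set of upstream sequences used held none for it. The sequences are the 250 bases before the transcript start from RefSeq (GRCm38.p6, minus strand, chr4:136886201-136886450 for C1qb and chr4:136892915-136893164 for C1qc), and capitals mark GAGGAA or its reverse complement TTCCTC, the core letters of sites of PU.1, a transcription factor of macrophages.
C1qb: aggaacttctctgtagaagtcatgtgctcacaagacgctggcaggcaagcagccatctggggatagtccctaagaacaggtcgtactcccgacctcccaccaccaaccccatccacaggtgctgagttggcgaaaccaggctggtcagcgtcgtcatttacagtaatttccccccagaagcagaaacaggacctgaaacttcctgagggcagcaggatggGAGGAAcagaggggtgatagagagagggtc
C1qc: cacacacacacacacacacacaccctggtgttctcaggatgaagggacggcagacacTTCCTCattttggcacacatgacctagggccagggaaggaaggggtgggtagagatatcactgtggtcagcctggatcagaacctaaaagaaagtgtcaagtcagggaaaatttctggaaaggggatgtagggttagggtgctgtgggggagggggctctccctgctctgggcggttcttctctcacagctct
Each window held 1 match, which begins 30 bases before the start in C1qb and 193 bases before it in C1qc. Of 32851 such windows in the table, 23.3% held a match on either strand. The letters TTCNNNGAA, a STAT-type spacing held by 7.02% of windows, and an interferon-response core, GAAA followed after any 2 bases by GAAA, held by 2.98%, were also searched on both strands, and neither is in these windows.

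C1qa encodes the A chain. Its intensity in nontransgenic animals had a lowest value of 4599, a median of 5592 and a highest value of 7106 units, and in transgenic animals these were 5336, 5909 and 7283. The groups overlapped over most of their range, and transgenic minus nontransgenic came to 0.11 in log2 units (95% interval -0.16 to 0.38, SE 0.13, limma adjusted p = 0.856).

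C1qb encodes the B chain. It ran from 18137 over a median of 29617 to 34258 units in nontransgenic and from 18618 over 23669 to 28864 in transgenic animals. Of the 6 nontransgenic animals, 3 lay above the highest transgenic one, and the lowest animals of both groups were nearly level. Transgenic minus nontransgenic came to -0.16 in log2 units (95% interval -0.52 to 0.19, SE 0.17, limma adjusted p = 0.841).

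C1qc encodes the C chain. It ran from 14021 over a median of 18821 to 24177 units in nontransgenic and from 17733 over 21081 to 23693 in transgenic animals, which lay inside the nontransgenic range. Transgenic minus nontransgenic came to 0.12 in log2 units (95% interval -0.17 to 0.40, SE 0.13, limma adjusted p = 0.856). Without nontransgenic 3 the difference was 0.03 for C1qc, 0.05 for C1qa and -0.27 for C1qb. Over the 12 fits that left out 1 animal it ranged from 0.05 to 0.18 for C1qa, from -0.27 to -0.08 for C1qb and from 0.03 to 0.18 for C1qc, and none passed. With the neutrophil and fibroblast means as terms it was 0.38 for C1qa (SE 0.31, limma adjusted p = 0.896) and 0.45 for C1qc (SE 0.32, limma adjusted p = 0.884). Those terms cannot be separated from genotype, as given above.

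The pools lay close together for all 3 chains. The nontransgenic and transgenic pools differed by -0.03 for C1qa, 0.01 for C1qb and -0.01 for C1qc on the log2 scale. The log2 SD between animals of a genotype was 0.21 for C1qa, 0.32 for C1qb and 0.23 for C1qc, against 0.17, 0.12 and 0.13 between repeats of a pool. Over all tested probes the medians were 0.24 between animals and 0.17 between repeats, so C1qa varied between animals by little more than between repeats. The C1qb pools read 23262 and 19897 units for nontransgenic, 0.792 of the mean of the animals, and 22697 and 20841 for transgenic, 0.904 of it.

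Across animals the C1q chains moved together. In deposited intensity nontransgenic 3 was the lowest of the 12 animals for each chain, whereas on the normalized log2 scale transgenic 3 was lower for C1qb (14.141 against 14.212). With genotype means removed, r over the 12 animals was 0.82 for C1qa with C1qb (permutation p = 0.00490), 0.82 for C1qa with C1qc (permutation p = 0.00392) and 0.81 for C1qb with C1qc (permutation p = 0.00425). Each had an adjusted p of 0.0343 over the 21 member pairs, and these 3 were the only pairs that passed. The rank correlations were 0.83 for C1qa with C1qb (permutation p = 0.00411, adjusted p = 0.0853), 0.74 for C1qa with C1qc (permutation p = 0.0138, adjusted p = 0.0965) and 0.78 for C1qb with C1qc (permutation p = 0.00812, adjusted p = 0.0853), so none passed by rank. Without the 2 animals farthest from the median of the first gene, r was 0.88 for C1qa with C1qb, 0.78 for C1qa with C1qc and 0.66 for C1qb with C1qc. Over the full 12 animals, an r of at least 0.81, that of C1qb with C1qc, was reached by 0.198% of all 55477311 pairs of tested probes, whose r lay between -0.55 and 0.55 from the 5th to the 95th percentile.

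Within genotypes, r for C1qa with C1qb was 0.79 among nontransgenic and 0.89 among transgenic animals. For C1qa with C1qc it was 0.92 and 0.59, and for C1qb with C1qc 0.83 and 0.77. Leaving out single animals kept r of the chains between 0.73 and 0.91, but the calls changed. All 3 pairs passed without transgenic 5 or transgenic 6, 2 without nontransgenic 4, 1 without nontransgenic 5, and none without nontransgenic 1, 2, 3 or 6 or transgenic 1, 2, 3 or 4. Without both transgenic 1 and transgenic 6 none passed, at r of 0.82 to 0.85 and adjusted p up to 0.0754.

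An array-wide pattern moved with the C1q chains. The first principal component of all other tested probes, with genotype means removed, held 22% of their variance and correlated with C1qa (0.66), C1qb (0.70) and C1qc (0.82). With it removed, an alternative added after seeing the data, r was 0.68 for C1qa with C1qb, 0.65 for C1qa with C1qc and 0.59 for C1qb with C1qc, and no pair passed (adjusted p up to 0.370). Which chip held each array is not in the labels used, and its part in these correlations was not tested.

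**Figure D3:**
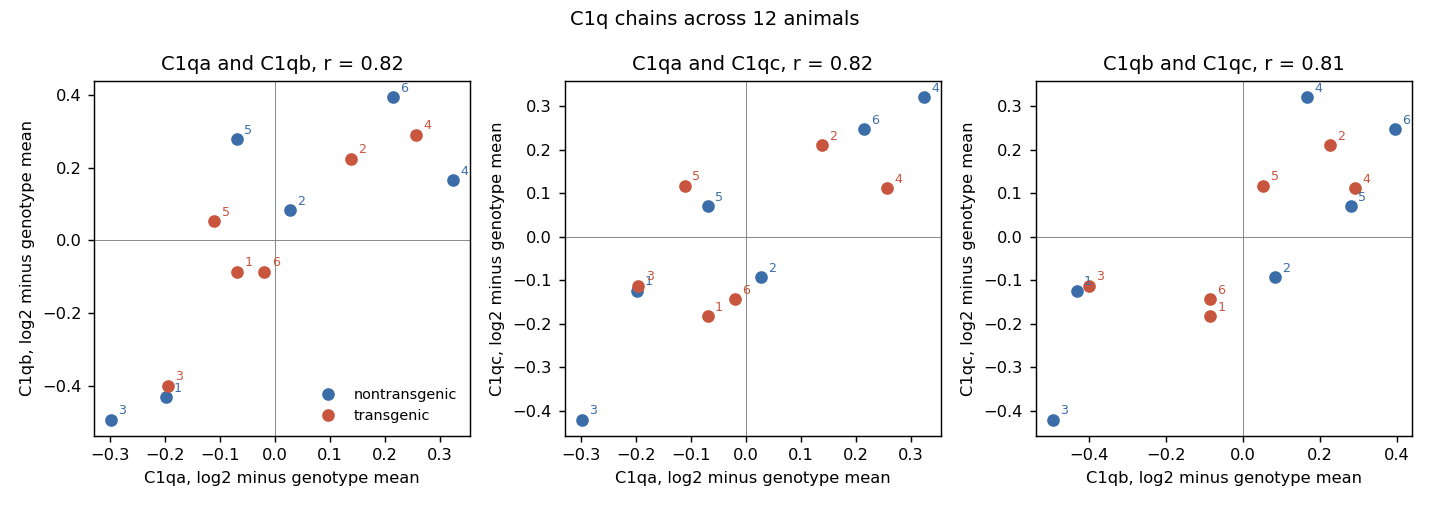
Log2 levels of the C1q chains minus the mean of the animal's genotype, for C1qa with C1qb, C1qa with C1qc and C1qb with C1qc. Each dot is an animal, numbered within its genotype. The points rise along the diagonal in both genotypes, with r of 0.82, 0.82 and 0.81 over 12 animals.

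C1qb was lower where neutrophil markers were higher. With genotype means removed, its r with the neutrophil marker mean was -0.79 over the 12 animals (permutation p = 0.00140, adjusted p = 0.0343 over 49 relations), and the rank correlation was -0.70 (permutation p = 0.0172, adjusted p = 0.282). Pearson's r was -0.74 among nontransgenic and -0.93 among transgenic animals, and -0.83 without the 2 farthest animals. The other chains had r of -0.55 (C1qa, permutation p = 0.0720, adjusted p = 0.425) and -0.53 (C1qc, permutation p = 0.0807, adjusted p = 0.425), with rank correlations of -0.48 (permutation p = 0.130, adjusted p = 0.579) and -0.57 (permutation p = 0.0665, adjusted p = 0.466), and r without the 2 farthest animals of -0.60 and -0.70. With the neutrophil and fibroblast means as terms the genotype difference of C1qb was 0.52 (SE 0.32, limma adjusted p = 0.856), opposite in sign to -0.16 and not past the threshold. Here too the terms cannot be separated from genotype.

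Dendritic cell markers, of which 3 of 7 were tested, also varied with the C1q chains, but no relation passed after adjustment over the 49. Flt3 exceeded noise in 3 of 12 animals, Itgae in 6 and Ccr7 in 12, so the list mean rests partly on values near or below noise. For C1qa r was 0.74 (permutation p = 0.0133, adjusted p = 0.217) and the rank correlation 0.70 (permutation p = 0.0267, adjusted p = 0.282). For C1qb r was 0.69 (permutation p = 0.0275, adjusted p = 0.285) and the rank correlation 0.73 (permutation p = 0.0175, adjusted p = 0.282). For C1qc r was 0.67 (permutation p = 0.0298, adjusted p = 0.285) and the rank correlation 0.64 (permutation p = 0.0445, adjusted p = 0.363). In the order C1qa, C1qb and C1qc, r was 0.93, 0.94 and 0.96 among nontransgenic animals, 0.42, 0.26 and 0.13 among transgenic animals, and 0.53, 0.29 and 0.40 without the 2 farthest animals. The difference between the genotypes in these correlations was not tested, and Zbtb46, Xcr1, Clec9a and Cd209a did not pass the filter.

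The genes most like each chain across the 12 animals were picked as the highest r among 7503 named genes, so their values are a description. For C1qa they were Taf1d (0.92), Saraf (0.91) and Stk4 (0.88). For C1qb they were U2af1l4 (0.95), Gas6 (0.92) and Ttc3 (0.91). For C1qc they were H2-Eb1, a chain of an MHC class II molecule (0.97), the transferrin gene Trf (0.94) and Senp1 (0.94).

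C4b, which encodes C4, the substrate of C1s, had 4 probes. The brightest exceeded noise in all 12 animals and ran from 154 over a median of 214 to 364 units in nontransgenic and from 116 over 214 to 319 in transgenic animals. The medians were level, and transgenic minus nontransgenic came to -0.01 in log2 units (95% interval -0.39 to 0.36, SE 0.18, limma adjusted p = 0.991). A second probe, above noise in 4 of 12 animals, had 0.02 (SE 0.11, adjusted p = 0.975), and the other 2 exceeded noise in 2 and 0 animals and were not tested. C4b has a nearly identical neighbour, C4a, and probes may not tell them apart. The 2 tested C4a probes had log2 differences of 0.25 (SE 0.21, adjusted p = 0.801) and 0.10 (SE 0.35, adjusted p = 0.963). The C4b pools read 228 and 184 units for nontransgenic and 202 and 320 for transgenic.

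Cfb encodes factor B, the protease of the alternative pathway convertase. Its intensity fell into separate bands. In 5 animals it lay between 102 and 108 units (nontransgenic 1 and 5, transgenic 2, 3 and 4), in 6 it lay between 214 and 241 (nontransgenic 2, 3, 4 and 6, transgenic 1 and 5), and transgenic 6, at 32.1, was below the noise limit. Both genotypes had animals in each of the main bands. The median was 216 in nontransgenic and 107 in transgenic animals, and transgenic minus nontransgenic came to -0.30 in log2 units (95% interval -0.77 to 0.16, SE 0.22, limma adjusted p = 0.771). Without transgenic 6 it was -0.15, and over the 12 fits that left out 1 animal it ranged from -0.42 to -0.15. It was -0.57 with the resident macrophage mean as a term (SE 0.23, limma adjusted p = 0.454) and -0.47 with dim values set at the noise limit, and none of these passed.

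The pools did not show the Cfb difference. The nontransgenic pool read 168 and 223 units and the transgenic pool 222 and 261, a log2 difference of 0.21, opposite in sign to that of the animals. The transgenic pool averaged 1.755 times the mean of the animals it was made from. The log2 SD of Cfb between animals of a genotype was 0.44, which exceeded that of 93.2% of tested probes, against 0.16 between pool repeats. With genotype means removed, Cfb and Serping1 had r = -0.42 over the 12 animals (permutation p = 0.171, adjusted p = 0.718 over 21 pairs; rank correlation -0.45, permutation p = 0.162, adjusted p = 0.558), and -0.14 without transgenic 1 and transgenic 6, which were also the 2 farthest animals.

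C3ar1 encodes the receptor of the anaphylatoxin C3a, which is released from C3. It was dim, from 33.8 over a median of 92.0 to 134 units in nontransgenic and from 76.8 over 109 to 165 in transgenic animals. Nontransgenic 2 was below the noise limit, and the groups overlapped from 76.8 to 134. Transgenic minus nontransgenic came to 0.19 in log2 units (95% interval -0.14 to 0.52, SE 0.16, limma adjusted p = 0.806). It was 0.09 without nontransgenic 2, 0.12 without transgenic 1, 0.05 without transgenic 1 and transgenic 6, and 0.31 with dim values set at the noise limit, and none of these passed. The repeats of the nontransgenic pool read 54.1 and 199 units and those of the transgenic pool 144 and 164, so the log2 SD between repeats (0.49) exceeded that between animals (0.29).

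**Figure D4:**
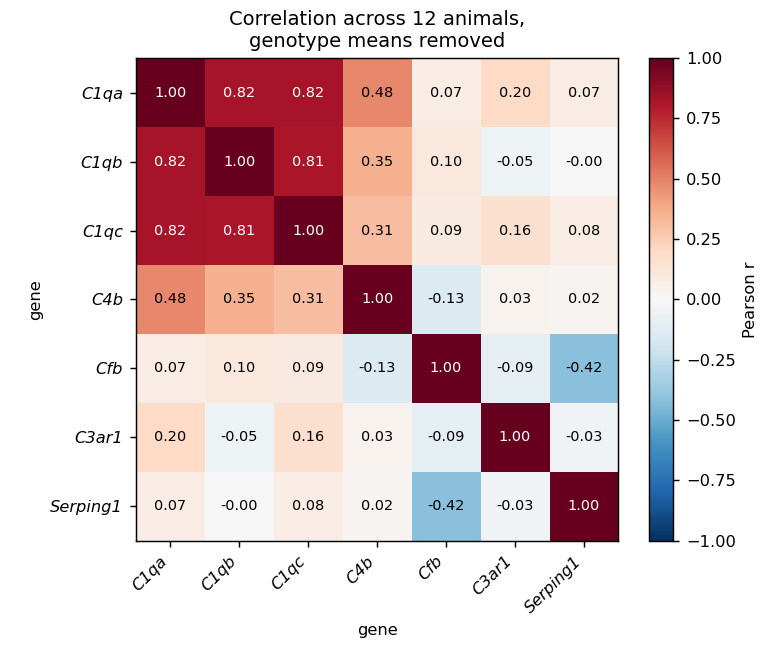
Pearson correlation between the 7 measured members over 12 animals after removal of genotype means, from -1 (blue) to 1 (red). The C1q chains form the block with r of 0.81 to 0.82, and all other pairs lie between -0.42 and 0.48.

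Outside the C1q block no pair of members passed. C4b had r of 0.48 with C1qa (permutation p = 0.128, adjusted p = 0.675; rank correlation 0.56, permutation p = 0.0759, adjusted p = 0.399), and 0.40 without the 2 farthest animals. Serping1 had r of 0.07 with C1qa (permutation p = 0.840, adjusted p = 0.989), -0.0012 with C1qb (permutation p = 0.997, adjusted p = 0.997) and 0.08 with C1qc (permutation p = 0.837, adjusted p = 0.989). The rank correlations were 0.09, -0.16 and -0.04 (permutation p = 0.800, 0.654 and 0.928, adjusted p = 0.991 each). Without the 2 animals farthest from the median of the C1q gene, r was 0.03 with C1qa, -0.66 with C1qb and -0.67 with C1qc, so the values with C1qb and C1qc rest on those animals, nontransgenic 1 and 3 for C1qb and nontransgenic 3 and 4 for C1qc. By highest r, Psmc1 (0.92), Copg1 (0.88) and Padi4 (0.87) were most like C4b, and Tgs1 (0.91), Prr14 (0.88) and Tmem94 (0.88) most like Cfb. Olfr1352 (0.91), Bloc1s1 (0.90) and Terf2ip (0.88) were most like C3ar1, and Zfand2b (0.87), Csrp2 (0.85) and Tmem254a (0.85) most like Serping1.

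Among 47 further complement genes in 4 lists, 39 had a probe and 15 were tested, and none passed limma's test. At an unadjusted p under 0.05 there were 3, all lower in transgenic animals, where 8.53% of all tested probes reached that level, 4.5% as lower and 4.03% as higher. The median log2 difference of the 15 genes was 0.08, against 0.01 over all tested probes, and 6 of the 15 lay below 0, against 47.8% of all tested probes.

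The 3 genes were regulators and a receptor. Cd55, decay-accelerating factor, which takes apart C3 convertases on the cell surface, had a median of 118 units in nontransgenic (63.5 to 294) and lay between 7.2 and 91.3 in transgenic animals. Its log2 difference was -0.58 (SE 0.19, limma adjusted p = 0.316), and 4 of the 6 transgenic animals exceeded noise. Clu, clusterin, a secreted chaperone that blocks the terminal complex, averaged 921 ± 390 units (SD, n = 6) in nontransgenic and 518 ± 246 (SD, n = 6) in transgenic animals, which is -0.75 on the log2 scale (SE 0.29, limma adjusted p = 0.447). Vsig4, the macrophage receptor of C3b and iC3b, averaged 2366 ± 677 and 1561 ± 408 units in the same order, at -0.57 (SE 0.19, limma adjusted p = 0.326). Each of these 3 genes lay below the nontransgenic mean in 6 of 6 transgenic animals. They were picked by p in the same animals, so this count adds no separate support. C2, which did not reach that level, also had 6 of 6, whereas the ficolin gene Fcna had 0 of 6.

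Of the initiation list 4 of 15 genes were tested. C2, the partner of C4 in the classical convertase, was at -0.29 on the log2 scale (SE 0.16, limma adjusted p = 0.641), and the ficolin gene Fcna, a lectin-pathway recognition molecule, had 0.41 (SE 0.26, adjusted p = 0.720). C1s1, the protease that cuts C4, had 0.11 (SE 0.13, adjusted p = 0.862) and exceeded noise in 3 of 12 animals, all transgenic. None of the 3 probes of C1ra, its partner protease, exceeded noise in any animal, and both Masp1 probes were below it as well. C6, of the membrane attack complex, was tested alone of 8 alternative and terminal genes (0.08, SE 0.14, adjusted p = 0.915). Hc, which encodes C5, did not exceed noise in any animal.

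Of the 14 further regulators 4 were tested, and beside Cd55 and Clu these were Cd59a, which blocks the membrane attack complex (0.16, SE 0.13, adjusted p = 0.796), and Cr1l, the rodent membrane regulator Crry (0.02, SE 0.24, adjusted p = 0.991 on its brighter probe). Of the 10 further receptors 6 were tested. Itgax (0.23, SE 0.19, adjusted p = 0.806) and Itgam (0.19, SE 0.17, adjusted p = 0.817), the alpha chains of complement receptors CR4 and CR3, did not pass. Cd93, a membrane protein once described as a C1q receptor, had 0.17 (SE 0.16, adjusted p = 0.841). C5ar1, the C5a receptor, and Calr, also on this list, did not exceed noise in any animal, which does not show that their transcripts are absent.

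**Figure D5:**
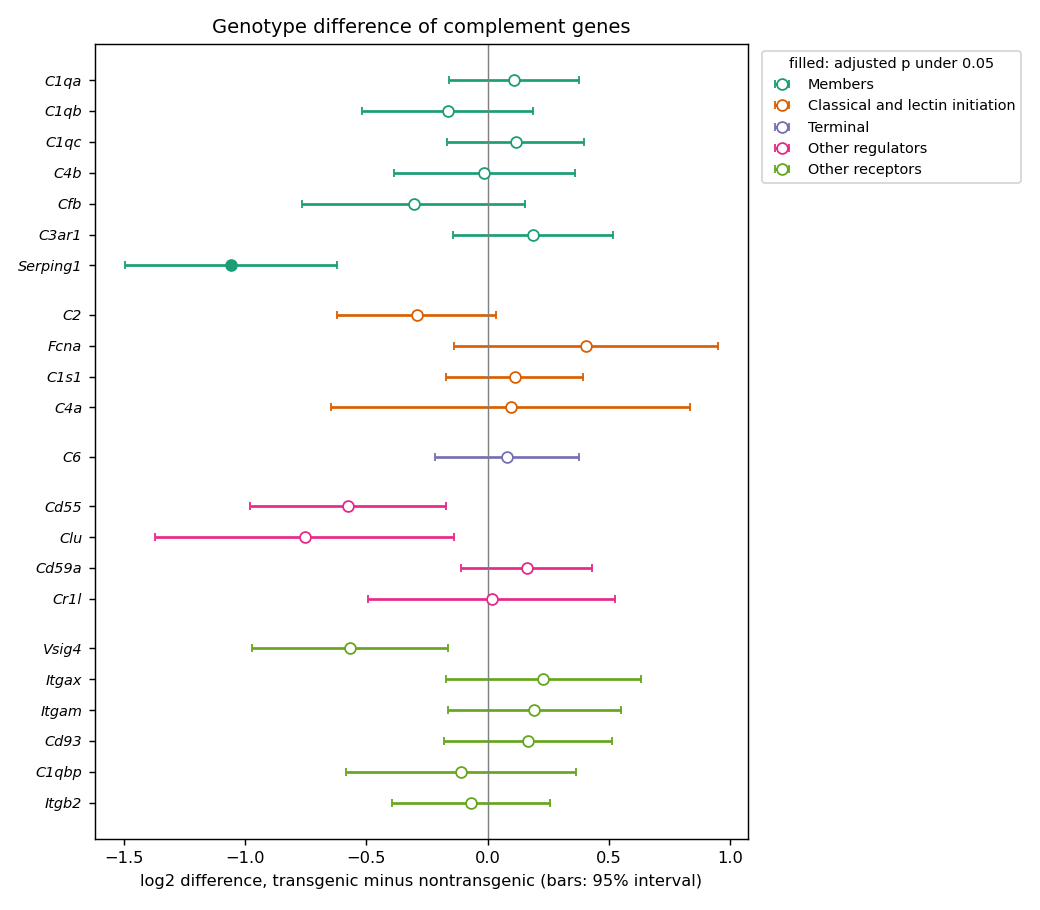
Log2 difference between transgenic and nontransgenic animals (horizontal axis, dots) with 95% intervals for the 7 measured members and the 15 tested genes of the further complement lists, 6 animals per genotype. Serping1 is the filled dot, the gene with a limma adjusted p under 0.05. Cd55, Clu and Vsig4 have intervals below 0 but did not pass the adjusted test.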

How the data were processed

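Per the submitters' processing notes the authors used BeadStudio, of unstated version, and they deposited linear intensities. These run below 0 with nearly equal quartiles on all arrays, so background had been subtracted and arrays normalized, in ways the sources used here do not give. The other deposited table, of non-normalized values, has 32 columns whose names match no sample, and these were not used.

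From 24611 probes, 4 control probes were left out. Values went through limma's normexp step (saddle method, offset 16), which added about 96.9, then quantile normalization over the 12 animals and log2. The noise limit of an array was 1.64 times the root mean square of its negative values. Pool arrays were mapped to the animals' distribution. Tests were lmFit and eBayes in limma 3.58.1 (R 4.3.3), two-sided, with Benjamini-Hochberg adjustment over 10534 probes and a threshold of 0.05, without covariates. Single values had exact permutation tests over 924 assignments of animals, correlations permutation tests with 100000 resamples within genotype. The brightest tested probe stood for a gene.

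Symbols came from the platform annotation, updated by gene ID (19852 probes with 1 symbol, 4755 with none here). The members, lists and tests were chosen with earlier results of these data known. Genes named were all members, the up to 4 genes with the smallest p of each further complement list, Plau, the 3 genes most like each member, and the 2 marker genes with the smallest p of a list whose mean differed. C1ra, Masp1, Hc, C5ar1, Calr, Adgre1, Marco, Col3a1, Flt3, Itgae and Ccr7 were named after their values were seen. So were the further fibroblast, B cell and resident macrophage markers named, and the marker genes listed as below the filter. On simulated arrays of the genotype comparison (10534 probes), recovery was 46.3% for the 67 probes altered 1.5-fold, 91% for the 67 altered 2-fold and 100% for the 66 altered 4-fold. The simulation drew each probe independently, without an array-wide pattern, and made the changes on the normalized log2 scale. That scale understates changes of dim genes, so recovery of the same fold in their intensity would be lower. The series' design text describes the 12 samples as independent. Alternatives covered background, normalization, filters, variance model, weights (statmod 1.5.0), terms and left-out animals.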

Additional observations from a re-analysis of the deposited data

How the results depend on the processing

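No paired analysis was possible because, as replicates, the labels number only the repeat arrays of the pools, which entered no test. Each animal's sample title holds its own number, none shared between the genotypes, so the titles define no pairs. The lowest title numbers belong to transgenic 1 and nontransgenic 1, 2 and 3. On the first principal component of all tested probes these scored -24.8, -14.7, -10.8 and -15.6, and the others -1.2 to 16.2. That order was not tested. The number of members called was 1, and 0 without a filter on dim probes (Serping1 adjusted p = 0.0691), with neutrophil and fibroblast means as terms and with the resident macrophage mean as a term. It ranged from 0 to 1 over the fits that left out 1 animal, with Serping1 not called in 4 of 12. Serping1 kept its negative sign in all alternatives run, from -1.55 with dim values set at the noise limit to -0.69. The call of Serping1 by single values adjusted over the 7 genes, 1 by the permutation test, was 0 by an exact Mann-Whitney test (exact p = 0.00866 for Serping1, n = 6 per genotype). The further complement genes had 0 calls in all alternatives run. Over all probes the count was 77, with 33 when only probes above noise on all 12 animals were tested, 42 without a filter, 1 with neutrophil and fibroblast means and 25 with the resident macrophage mean as terms, and 41 to 90 with 1 animal left out. Fewer or more probes tested enter the adjustment in both filter settings. The cause of the other changes was not tested. The neutrophil and fibroblast means did not overlap between the genotypes, so fits with them as terms cannot separate these markers from genotype. C1qb turned to 0.52 and C3ar1 to -0.44 with neutrophil and fibroblast means as terms. C4b, at -0.01, turned to 0.0173 with array weights, 0.0031 with the mean over tested probes, 0.24 with neutrophil and fibroblast means, 0.14 with the resident macrophage mean and 0.0195 without transgenic 1 and transgenic 6, and ranged from -0.10 to 0.10 with 1 animal left out. The count of correlated member pairs was 3, and 0 with median scaling, cyclic loess, without transgenic 1 and transgenic 6 or with the first principal component removed, 1 with genotype means not removed, and 0 to 3 with 1 animal left out. With median scaling the adjusted p of the C1q pairs reached 0.0570 and with cyclic loess 0.0661. Signal near noise limits Cfb, C3ar1, Cd55, the second C4b probe and the dendritic cell list mean, and 6 animals per genotype limit all comparisons.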
